A study of Mus musculus with 16 samples.

Results

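The acid-sensing ion channel (ASIC) and transient receptor potential (TRP) channel genes *Asic1*, *Asic2*, *Asic4*, *Trpm2*, *Trpm4*, *Trpm7*, *Trpc1*, *Trpc5*, *Trpc6* and *Trpv2* were examined in mouse primary neuronal cultures exposed to oxygen-glucose deprivation (OGD). They were selected by gene symbol and make up 10 of 53679 symbols and 57 of 135202 isoforms in the deposited table. The cultures came from the cortex of wild-type embryos at E15. They received vehicle (VEH) or 10 μM tianeptine (TIA, an atypical antidepressant) at DIV 8, 24 h before sham treatment or 3-h OGD at DIV 9, and RNA was taken after 6 h of reoxygenation. The sample labels call the vehicle cultures untreated. CONTROL-VEH comprised cultures 1 to 4, CONTROL-TIA cultures 5 to 8, OGD-VEH cultures 9 to 12 and OGD-TIA cultures 13 to 16. The model has no blood flow, and every culture holds the mixture of cells that grew in its well.

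ASICs are sodium-conducting trimers that open when extracellular protons bind. Several TRP channels respond to other products of injured tissue: TRPM2 opens with oxidative stress through ADP-ribose, TRPM4 is a sodium channel gated by intracellular calcium, and TRPM7 is a calcium- and magnesium-conducting channel fused to a kinase. TRPC channels open downstream of receptors coupled to phospholipase C, and TRPV2 is a calcium-permeable channel of the vanilloid family. Acidosis, oxidants and calcium overload accompany ischemia, which is why these families are often studied in this setting.

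The genes lie on 8 chromosomes of GRCm38. *Asic1* is at chr15:99670368-99701130, *Asic2* at chr11:80880169-81968457 and *Asic4* at chr1:75450436-75474343. *Trpm2* is at chr10:77907722-77970563, *Trpm4* at chr7:45302632-45333780 and *Trpm7* at chr2:126791565-126876230. *Trpc1* is at chr9:95705082-95750375, *Trpc5* at chrX:144381671-144688180 and *Trpc6* at chr9:8544142-8680741. *Trpv2* is at chr11:62574486-62600515. *Asic1*, *Asic4*, *Trpc6* and *Trpv2* are on the plus strand and the others on the minus strand.

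RefSeq promoters of GRCm38.p6, from 250 bases before to 50 bases after a start site, were matched to 8 of the 10 genes (11 promoters). They were searched on both strands for TGANTCA, the AP-1 motif, and for ACGTG, the core of the hypoxia response element. TGANTCA was in none of the 11 promoters, so no match of one motif overlapped the other, and in 7.81% of all 32851 promoters. ACGTG was in the promoters of *Trpm7*, *Trpm2*, *Trpc1* and *Trpc6* and in 19.6% of all promoters. A match is only a description of these letters. The promoter of *Trpm7* is shown because this gene had a positive OGD difference with vehicle and with TIA, and those of *Asic2*, *Trpc5* and *Trpc6* because these genes were lower in every OGD culture than in every control of the same drug arm. Capitals mark ACGTG on either strand, merged where matches overlap. Sequences run 5′ to 3′ on the strand of the gene, which is the plus strand for *Trpc6* and the minus strand for the others.
Trpm7 promoter, chr2:126876212-126876511: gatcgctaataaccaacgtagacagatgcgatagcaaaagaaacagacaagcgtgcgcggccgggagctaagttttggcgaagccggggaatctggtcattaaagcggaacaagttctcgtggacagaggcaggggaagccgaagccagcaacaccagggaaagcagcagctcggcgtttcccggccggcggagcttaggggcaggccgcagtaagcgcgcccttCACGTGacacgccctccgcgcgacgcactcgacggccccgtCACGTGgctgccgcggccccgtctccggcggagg
Asic2 promoter near the start of Asic2-201, chr11:81152854-81153153: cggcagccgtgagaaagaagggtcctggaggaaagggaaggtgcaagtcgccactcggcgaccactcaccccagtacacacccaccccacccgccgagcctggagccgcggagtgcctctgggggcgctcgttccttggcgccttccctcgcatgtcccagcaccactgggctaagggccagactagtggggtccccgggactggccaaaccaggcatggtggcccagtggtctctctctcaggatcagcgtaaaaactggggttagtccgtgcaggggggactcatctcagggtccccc
Asic2 promoter near the start of Asic2-202, chr11:81968347-81968646: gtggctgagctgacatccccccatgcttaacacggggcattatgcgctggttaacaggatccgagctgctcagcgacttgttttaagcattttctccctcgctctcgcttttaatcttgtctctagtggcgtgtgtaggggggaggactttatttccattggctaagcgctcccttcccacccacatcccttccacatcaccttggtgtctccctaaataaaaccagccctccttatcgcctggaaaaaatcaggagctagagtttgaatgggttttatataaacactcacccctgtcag
Trpc5 promoter, chrX:144688131-144688430: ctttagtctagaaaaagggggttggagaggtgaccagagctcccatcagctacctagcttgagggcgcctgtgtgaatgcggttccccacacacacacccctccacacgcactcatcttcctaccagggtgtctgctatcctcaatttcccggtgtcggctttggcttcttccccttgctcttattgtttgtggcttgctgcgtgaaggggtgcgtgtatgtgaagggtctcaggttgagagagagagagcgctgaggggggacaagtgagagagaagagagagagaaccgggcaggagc
Trpc6 promoter, chr9:8543892-8544191: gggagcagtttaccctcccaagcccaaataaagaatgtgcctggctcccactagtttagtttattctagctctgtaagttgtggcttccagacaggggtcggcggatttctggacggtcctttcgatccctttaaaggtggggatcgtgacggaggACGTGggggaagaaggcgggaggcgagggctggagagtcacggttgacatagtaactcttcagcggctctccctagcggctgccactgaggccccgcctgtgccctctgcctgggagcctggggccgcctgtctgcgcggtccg
In *Trpm7* the capitals form 2 runs of CACGTG, a palindrome that holds the core on both strands. *Trpc6* has 1 match. The shown promoters of *Asic2* and *Trpc5* held neither motif. The start site of the first *Asic2* promoter lies 418 bases downstream of the annotated start of isoform Asic2-201, at 81153321. The whole printed stretch therefore lies within the annotated span of Asic2-201, and the sequence upstream of that annotated start was not searched. The start site of the second lies 61 bases downstream of the annotated start of Asic2-202.

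Levels are given as FPKM (reads scaled to isoform length and library size), added up over the isoforms of each gene. The estimated depth was 18.7 to 25.3 M reads per culture. Summed levels of 7 neuron markers were 1964 to 2644 FPKM in CONTROL-VEH, 2034 to 2222 in CONTROL-TIA, 1017 to 1831 in OGD-VEH and 1287 to 2070 in OGD-TIA. Summed levels of 6 astrocyte markers ran from 587 to 1485 FPKM in CONTROL cultures and from 697 to 2338 in OGD cultures. The last-numbered culture of each group (4, 8, 12 and 16) had the highest astrocyte sum of its group, at 1485, 756, 2338 and 1785 FPKM, and no label says what these cultures share. Cultures 12 and 16 also had the lowest neuron sums of their groups (1017 and 1287 FPKM), whereas cultures 4 and 8 had the highest of theirs (2644 and 2222 FPKM). Microglia markers summed to at most 3.03 FPKM in any culture, and *Cx3cr1* averaged 0.00450 FPKM in CONTROL-VEH. In such bulk samples, fewer cells of a type and less RNA per cell cannot be told apart.

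In CONTROL-VEH, *Asic1* had the highest level of the 10 genes at 63.4 ± 9.45 FPKM (mean ± SD, n = 4), followed by *Trpm7* at 34.9 ± 2.34 FPKM. *Asic2* at 16.8 ± 1.71 FPKM and *Trpc1* at 14.9 ± 2.86 FPKM came next, and their cultures overlapped. *Trpm4* at 6.68 ± 2.55 and *Trpv2* at 5.99 ± 1.81 FPKM also overlapped. The levels of *Trpm2* (3.52 ± 0.758), *Trpc5* (2.76 ± 0.223) and *Asic4* (2.01 ± 1.07 FPKM) did not differ beyond their spread. *Trpc6* was lowest at 0.288 ± 0.0769 FPKM, which corresponds to about 12 to 25 reads per culture. This order is per length of isoform and depends on short isoforms, which contributed 69.6% of the summed FPKM of *Trpm4*, 61.3% of *Trpm7*, 47.0% of *Asic1* and 18.5% of *Trpc1*.

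**Figure D1:**
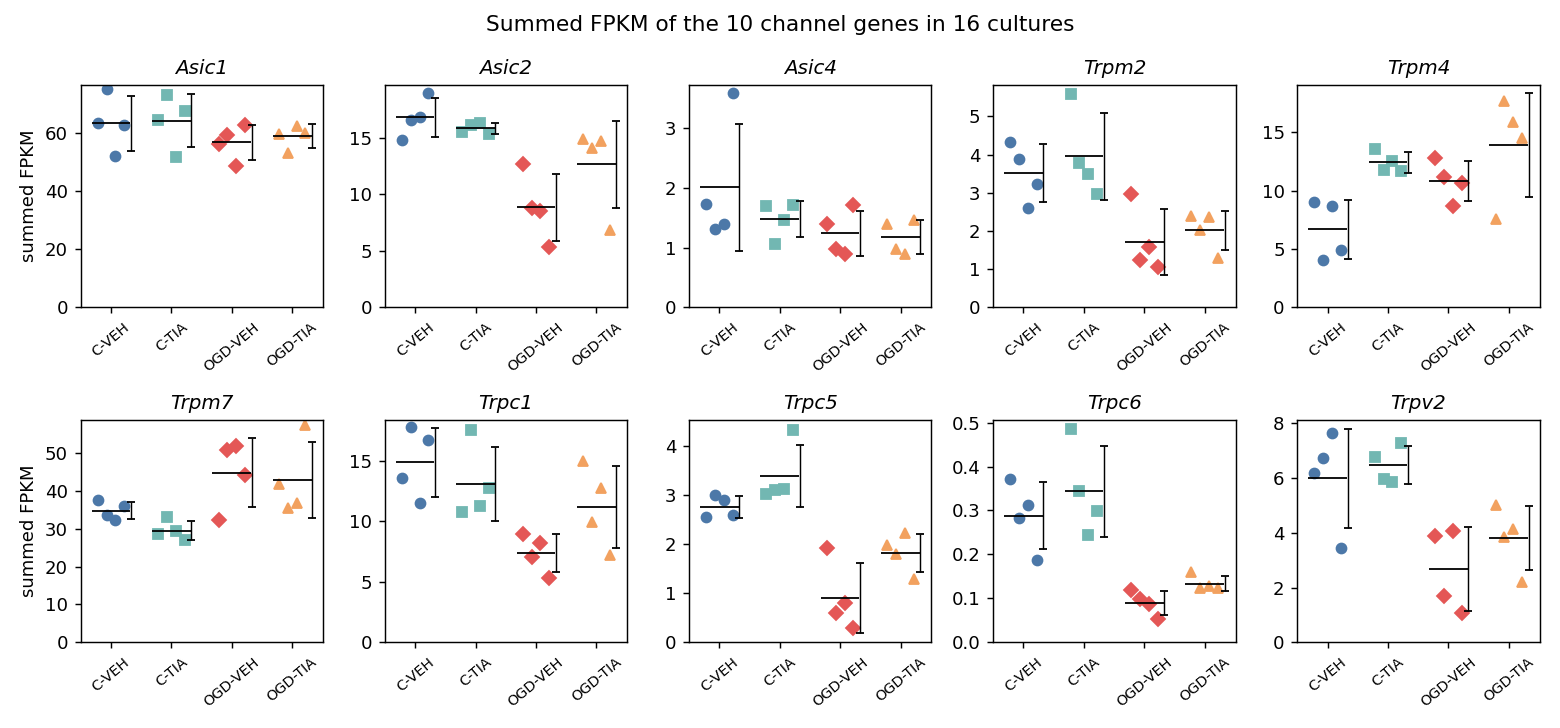
Each panel plots the summed FPKM of a channel gene (vertical axis from 0) in the 16 cultures, 4 per group in culture order, with a line at the group mean and a bar for ± 1 SD (C-VEH, CONTROL-VEH; C-TIA, CONTROL-TIA). Cultures of OGD-VEH sit below all CONTROL-VEH cultures for *Asic2*, *Trpc1*, *Trpc5* and *Trpc6*, whereas *Asic1* overlaps in all groups.

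The first comparison asked how OGD alone altered these transcripts. In OGD-VEH versus CONTROL-VEH, 2 of the 9 genes above the filter of 0.5 FPKM fell by the study's criteria (padj of at most 0.05 and at least a 2-fold difference, here with limma), namely *Trpc1* and *Trpc5*, and none rose. Over all 16346 genes tested, 1.68% fell and 2.4% rose by these criteria, and by padj alone 3.45% were lower and 4.99% higher, against 3 and 0 of the 9 channel genes. The 10 genes had a median log2 fold change of -0.99, against 0.10 over all genes tested, and 8 of the 10 values were negative. The 4 OGD-VEH cultures lay below all CONTROL-VEH cultures for 4 of the 10 genes, including *Trpc6*, and above them for 0 genes. Among all genes above the filter, which leave out *Trpc6*, these shares were 9.95% and 12.7%. Both calls were at the edge of the criteria. Leaving out any of 7 cultures (1, 2, 3, 4, 10, 11 or 12) left no channel gene called, while leaving out culture 9 gave 5 calls, namely *Asic2*, *Trpm2*, *Trpc1*, *Trpc5* and *Trpv2*. The calls over all genes moved in the same way. They were 668 with all cultures, 1 to 71 without any of those 7, and 2186 of 16366 without culture 9. Culture 9 had the highest neuron marker sum of OGD-VEH, 1831 FPKM, and the lowest astrocyte sum, 945 FPKM. The part of cell composition in the differences was not tested.

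*Asic1*, the main proton-gated subunit of central neurons, differed little. Its levels were 63.6, 75.2, 52.0 and 62.7 FPKM in CONTROL-VEH cultures 1 to 4 and 56.2, 59.4, 48.7 and 62.7 FPKM in OGD-VEH cultures 9 to 12. The groups overlapped, and the log2 fold change was -0.15 (95% interval -0.47 to 0.16; padj = 0.456, limma). With TIA the levels were 64.4, 73.1, 51.7 and 67.5 FPKM without OGD and 59.8, 52.9, 62.5 and 59.9 FPKM after it, again overlapping (log2 fold change -0.12, 95% interval -0.39 to 0.15). Most of the spread came from isoforms under 1000 bases, which summed to 30.4 ± 9.12 FPKM in CONTROL-VEH, while the longer isoforms summed to 33 ± 0.683 FPKM. With isoforms weighted by length, in proportion to reads, OGD-VEH cultures at 30.8 to 33 FPKM lay below CONTROL-VEH cultures at 33.7 to 36.7 FPKM (log2 fold change -0.12, padj = 0.201, limma). Weighted in this way, OGD-TIA at 30.8 to 34.1 FPKM overlapped with CONTROL-TIA at 32.2 to 35.8 FPKM.

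*Asic2*, a subunit that combines with ASIC1 and alters its gating, was lower after OGD. It measured 14.8, 16.6, 16.9 and 19.0 FPKM in CONTROL-VEH and 12.7, 8.81, 8.51 and 5.39 FPKM in OGD-VEH. The groups were separate, with culture 9 nearest to the controls and culture 12 lowest. The log2 fold change was -0.98 ± 0.24 (SE; padj = 0.0457, limma), past the padj criterion but just short of the fold criterion. With TIA, *Asic2* measured 15.5, 16.2, 16.3 and 15.3 FPKM in CONTROL-TIA and 14.9, 14.1, 14.8 and 6.84 FPKM in OGD-TIA. Cultures 13 to 15 were slightly below the CONTROL-TIA range and culture 16 far below it, and the log2 fold change was -0.39 ± 0.24 (padj = 0.399, limma).

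Both isoforms of *Asic2* are protein coding and longer than 1000 bases, and they start at separate promoters. Asic2-201, with 83.0% of the summed FPKM over all 16 cultures, was at 13.8 ± 1.13 FPKM in CONTROL-VEH and 7.67 ± 2.52 in OGD-VEH, without overlap. Asic2-202 was at 3.03 ± 0.929 FPKM in CONTROL-VEH and 1.18 ± 0.494 in OGD-VEH, also without overlap. Their log2 fold changes were -0.89 and -1.36 (padj = 0.145 and 0.159 over 53087 isoforms, limma). None of 32 tested isoforms of the channel genes was called in this comparison, against 0.141% of all isoforms, and 7 of the 32 had an unadjusted p under 0.05, against 19.1%. Asic2-201 and Trpc5-201 were called without culture 9 and Trpc1-202 without culture 3.

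**Figure D2:**
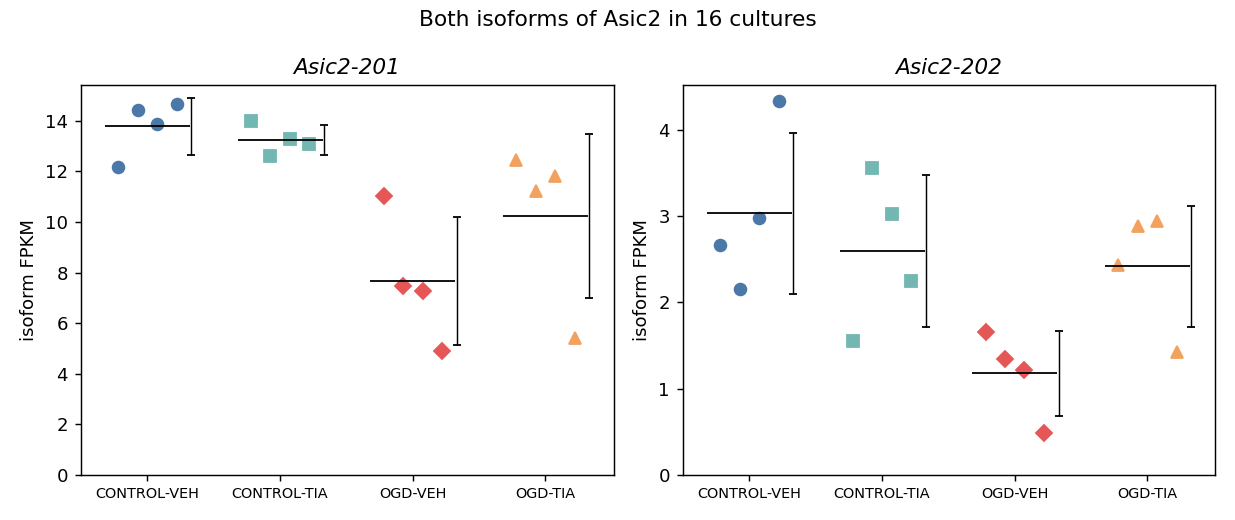
Isoform FPKM (vertical axes from 0) of Asic2-201 (left) and Asic2-202 (right) in the 4 cultures of each group, with a line at the mean and a bar for ± 1 SD. OGD-VEH cultures lie at 4.90 to 11 FPKM for Asic2-201 and 0.490 to 1.66 FPKM for Asic2-202, below the CONTROL-VEH cultures in both panels.

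*Asic4*, a family member that is not known to open with protons on its own, had 1.73, 1.32, 1.39 and 3.58 FPKM in CONTROL-VEH and 1.39, 0.978, 0.893 and 1.71 FPKM in OGD-VEH. Culture 4 stood above all other cultures, with the highest astrocyte sum of the CONTROL-VEH group, 1485 FPKM, and also its highest neuron sum, 2644 FPKM. Cultures 8, 12 and 16, with the highest astrocyte sums of the other groups, also had the highest *Asic4* of those groups. In culture 8 this was by 1.71 against 1.70 FPKM in culture 5. The part of cell composition was not tested. OGD-VEH and CONTROL-VEH overlapped (log2 fold change -0.58 ± 0.36; padj = 0.276, limma), and without culture 4 the value was -0.27. The OGD-TIA cultures, at 1.40, 0.974, 0.886 and 1.46 FPKM, overlapped with the CONTROL-TIA cultures at 1.70, 1.06, 1.46 and 1.71 FPKM.

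*Trpm2*, the oxidant- and ADP-ribose-gated channel, measured 4.34, 3.89, 2.61 and 3.22 FPKM in CONTROL-VEH and 2.96, 1.24, 1.60 and 1.05 FPKM in OGD-VEH. Culture 9 overlapped with the controls and the other 3 OGD-VEH cultures were below them. The log2 fold change was -1.08 ± 0.32 with padj = 0.0630 (limma), so the call was missed on padj. Weighting isoforms by length gave -1.13 with padj = 0.0365, which is a call, as it is for 6.35% of all genes with that weighting. With TIA, the levels were 5.59, 3.77, 3.5 and 2.98 FPKM in CONTROL-TIA and 2.39, 2.03, 2.37 and 1.29 FPKM in OGD-TIA. All 4 OGD-TIA cultures were below the CONTROL-TIA cultures (log2 fold change -0.94 ± 0.25; padj = 0.142, limma). Over all 16 cultures, only 12.4% of the summed *Trpm2* FPKM was in protein-coding isoforms, and the rest was in processed transcripts and retained introns. The longest coding isoform, Trpm2-203, averaged 0.229 ± 0.0914 FPKM in CONTROL-VEH, compared with 0.104 ± 0.108 in OGD-VEH. The coding share was 34.0% for *Asic1*, 36.2% for *Trpm7*, 61.1% for *Trpm4* and 64.6% for *Trpv2*, and at least 93.1% for the other 5 genes.

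*Trpm4*, the calcium-activated sodium channel, showed a difference that rested on short isoforms. Its summed level was 9.04, 4.07, 8.68 and 4.91 FPKM in CONTROL-VEH and 12.8, 11.2, 8.65 and 10.7 FPKM in OGD-VEH, which overlapped (log2 fold change 0.76 ± 0.28; padj = 0.0967, limma). In CONTROL-TIA it was 13.6, 11.8, 12.6 and 11.7 FPKM, above every CONTROL-VEH culture, and in OGD-TIA 7.53, 17.7, 15.9 and 14.5 FPKM. Isoforms under 1000 bases summed to 2.92 ± 2.91 FPKM in CONTROL-VEH, 9.28 ± 0.966 in CONTROL-TIA and 7.78 ± 1.41 in OGD-VEH. The longer isoforms, in contrast, were at 3.75 ± 0.400, 3.13 ± 0.185 and 3.03 ± 0.734 FPKM. With isoforms weighted by length, *Trpm4* was at 3.73 ± 0.238 FPKM in CONTROL-VEH, 3.91 ± 0.0530 in CONTROL-TIA, 3.78 ± 0.691 in OGD-VEH and 4.37 ± 0.320 in OGD-TIA, and the log2 fold change of OGD-VEH versus CONTROL-VEH was 0.01 (padj = 0.982, limma).

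*Trpm7*, the channel kinase that carries magnesium and calcium, was the remaining gene with positive OGD differences. It measured 37.5, 33.6, 32.3 and 36.0 FPKM in CONTROL-VEH and 32.3, 51.0, 51.9 and 44.4 FPKM in OGD-VEH. Cultures 10 to 12 were above all controls and culture 9 was at the control level (log2 fold change 0.34 ± 0.16; padj = 0.170, limma). With TIA it measured 28.5, 33.1, 29.4 and 27.0 FPKM in CONTROL-TIA and 42.0, 35.5, 36.7 and 57.4 FPKM in OGD-TIA. Each OGD-TIA culture was above each CONTROL-TIA culture (log2 fold change 0.51 ± 0.16; padj = 0.167, limma). The difference was also present in isoforms of 1000 bases or longer, which summed to 12.8 ± 1.61 FPKM in CONTROL-VEH and 17.2 ± 1.37 in OGD-VEH, and to 13 ± 0.827 in CONTROL-TIA and 15.9 ± 1.56 in OGD-TIA. The ranges of the longer isoforms did not overlap between OGD-VEH and CONTROL-VEH (15.5 to 18.7 against 11.4 to 15.1 FPKM). With TIA these ranges overlapped (13.7 to 17.1 against 12.1 to 14.1 FPKM). Weighted by length, OGD-VEH at 12.3 to 17.9 FPKM overlapped with CONTROL-VEH at 11.1 to 13.7 FPKM. The log2 fold change was then 0.43 (padj = 0.0515, limma). Weighted OGD-TIA values, at least 13.3 FPKM, lay above those of CONTROL-TIA, at most 11.7 FPKM (log2 fold change 0.33, padj = 0.0887, limma).

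**Figure D3:**
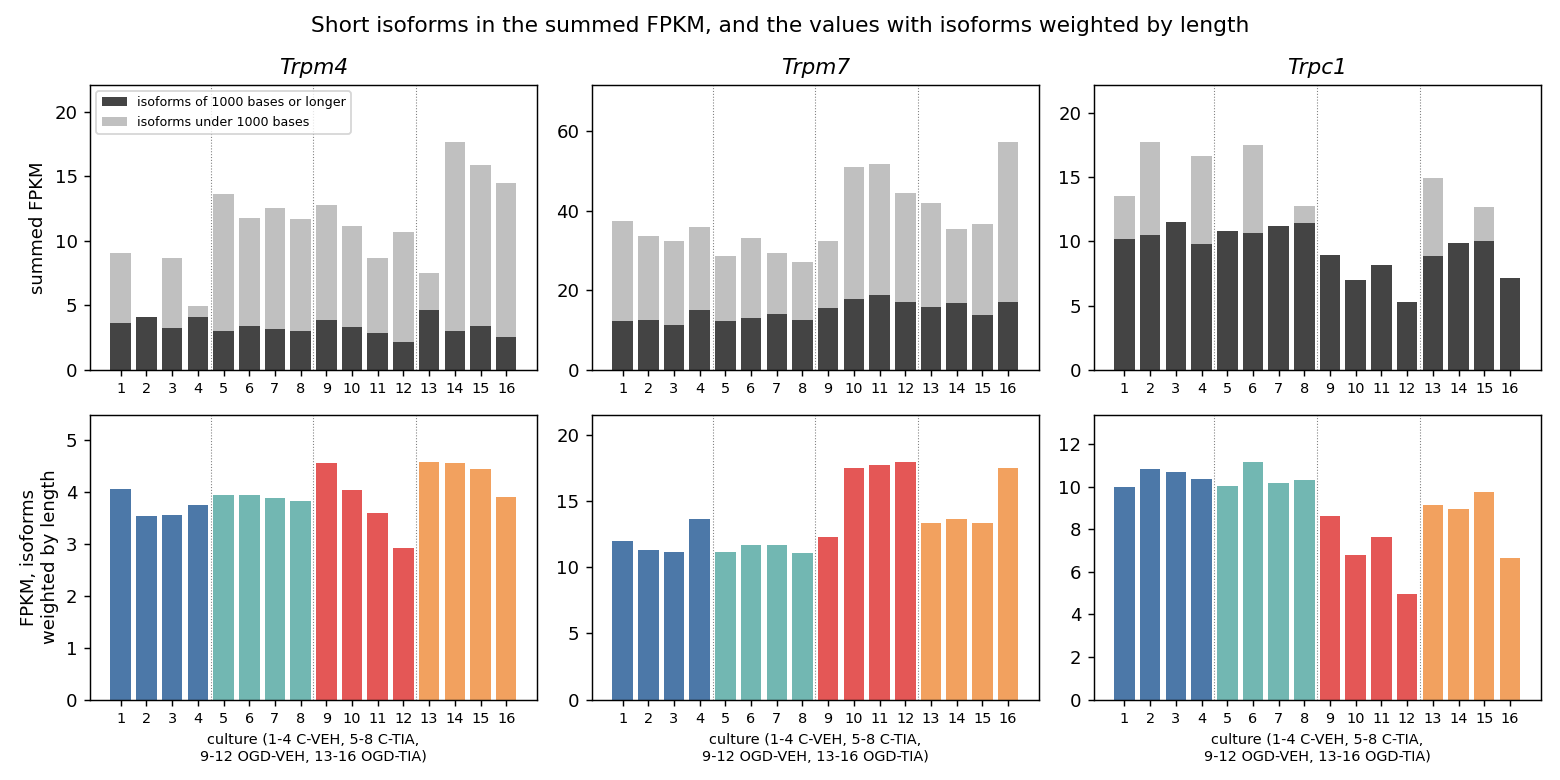
The upper panels stack the summed FPKM of isoforms of 1000 bases or longer (dark) and under 1000 bases (light) in cultures 1 to 16, and the lower panels plot the FPKM with isoforms weighted by length, coloured by group. The *Trpm4* levels of CONTROL-VEH and CONTROL-TIA differ in the light bars but are 3.55 to 4.05 and 3.83 to 3.95 FPKM when weighted, whereas *Trpm7* keeps higher values in OGD cultures 10 to 12 and 16, and *Trpc1* lower values in OGD-VEH.

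*Trpc1*, a widely expressed subunit of receptor-operated channels, fell after OGD with vehicle. The levels were 13.5, 17.8, 11.5 and 16.7 FPKM in CONTROL-VEH and 8.91, 7.0, 8.16 and 5.31 FPKM in OGD-VEH. The groups did not overlap, and the log2 fold change was -1.01 ± 0.21 (padj = 0.0358, limma). Part of it came from Trpc1-202, an isoform of 765 bases that was at 0.0180 to 7.25 FPKM in CONTROL-VEH and at most 0.00200 FPKM in OGD-VEH. Weighting isoforms by length gave 10.5 ± 0.382 FPKM in CONTROL-VEH and 7.0 ± 1.57 in OGD-VEH, still without overlap, with a log2 fold change of -0.60 (padj = 0.0350, limma) that no longer met the fold criterion. In CONTROL-TIA *Trpc1* was at 10.8, 17.5, 11.2 and 12.7 FPKM and in OGD-TIA at 15.0, 9.89, 12.7 and 7.16 FPKM. These groups overlapped (log2 fold change -0.25 ± 0.25; padj = 0.594, limma). Weighted by length they did not, with OGD-TIA at 6.63 to 9.75 FPKM and CONTROL-TIA at 10.0 to 11.1 FPKM (log2 fold change -0.28, padj = 0.170, limma).

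*Trpc5*, a calcium-permeable subunit found in growth cones and dendrites, also fell. It measured 2.55, 3.00, 2.89 and 2.59 FPKM in CONTROL-VEH and 1.92, 0.600, 0.798 and 0.283 FPKM in OGD-VEH. Culture 12 had about 24 reads on the gene, and culture 9 was the highest of its group but below every control. The log2 fold change was -1.77 ± 0.45 (95% interval -2.80 to -0.74; padj = 0.0488, limma), the largest decrease among the 10 genes in this comparison. A pseudocount of 1 in place of 0.1 gave -1.05. With TIA, *Trpc5* was at 3.01, 3.11, 3.12 and 4.33 FPKM in CONTROL-TIA and 1.98, 1.81, 2.22 and 1.30 FPKM in OGD-TIA, again without overlap (log2 fold change -0.87 ± 0.20; padj = 0.116, limma).

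*Trpc6*, a diacylglycerol-gated subunit, stayed under the filter and was read from the fit without a filter. Its levels were 0.371, 0.282, 0.313 and 0.187 FPKM in CONTROL-VEH, 0.485, 0.345, 0.244 and 0.299 in CONTROL-TIA, 0.118, 0.0980, 0.0860 and 0.0530 in OGD-VEH and 0.160, 0.123, 0.128 and 0.123 in OGD-TIA. All OGD cultures were below all CONTROL cultures, at about 4 to 12 reads against 12 to 35. The log2 fold changes were -1.03 ± 0.24 with vehicle (padj = 0.0863, limma) and -0.90 ± 0.23 with TIA (padj = 0.226). At this level the value depended on the pseudocount, and it was -0.24 with vehicle when 1 was added.

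*Trpv2*, the vanilloid-family member, measured 6.18, 6.73, 7.63 and 3.44 FPKM in CONTROL-VEH and 3.89, 1.69, 4.05 and 1.06 FPKM in OGD-VEH. Culture 4 was low among the controls and overlapped with cultures 9 and 11. The log2 fold change was -1.27 ± 0.45 with padj = 0.0884 (limma), which missed the call, while weighting by length gave -1.25 with padj = 0.0381. With TIA, it was at 6.78, 5.96, 5.84 and 7.30 FPKM in CONTROL-TIA and 5.01, 3.84, 4.14 and 2.20 FPKM in OGD-TIA. These groups were separate (log2 fold change -0.80 ± 0.24; padj = 0.155, limma).

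**Figure D4:**
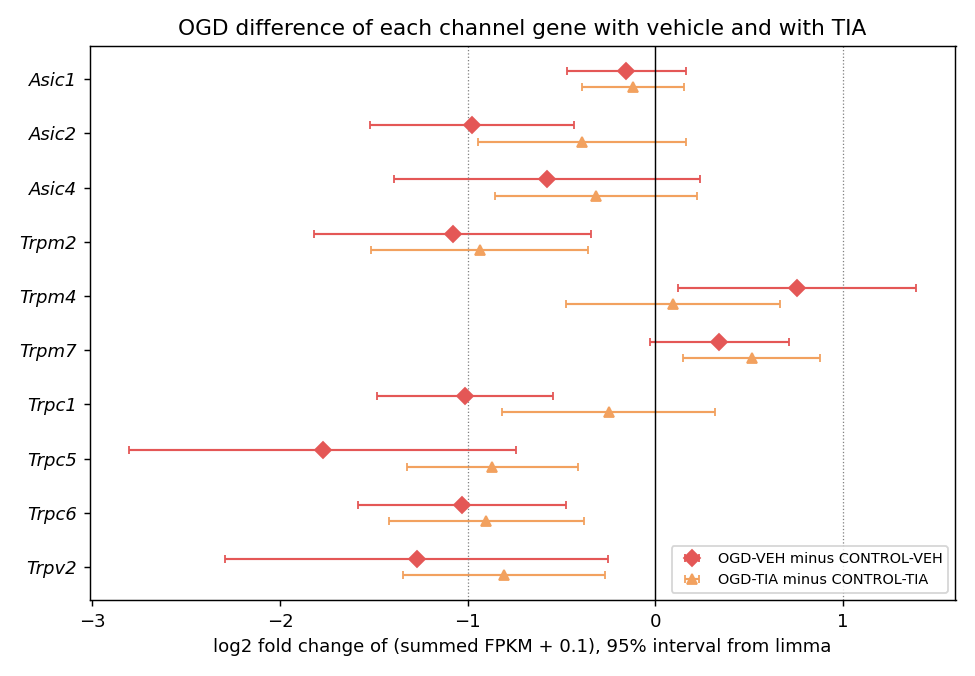
Points give the log2 fold change (horizontal axis) of each gene between OGD-VEH and CONTROL-VEH (diamonds) and between OGD-TIA and CONTROL-TIA (triangles), with 95% intervals from limma and dotted lines at -1 and 1. *Trpc5* is farthest to the left with vehicle at -1.77, and the intervals of the vehicle and TIA comparisons overlap for every gene.

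The second comparison concerned OGD in the presence of TIA. In OGD-TIA versus CONTROL-TIA no channel gene was called, and none of the 16242 genes tested was called (0%), although 19.5% had an unadjusted p under 0.05. With DESeq2 at the same thresholds the study did report differentially expressed genes here, fewer than for OGD-VEH versus CONTROL-VEH. The absence of calls therefore holds only for limma on FPKM as used here. By that unadjusted p, 5 of the 10 channel genes passed, namely *Trpm2*, *Trpm7*, *Trpc5*, *Trpc6* and *Trpv2*. OGD-TIA cultures lay below all CONTROL-TIA cultures for 5 of 10 genes (*Asic2*, *Trpm2*, *Trpc5*, *Trpc6* and *Trpv2*) and above them for *Trpm7*. Among all genes above the filter, which leave out *Trpc6*, these shares were 6.72% and 9.51%. The median log2 fold change of the 10 genes was -0.35, against 0.04 over all genes tested.

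Whether the OGD difference itself depended on TIA was tested with the interaction over 16 cultures. None of the 16313 genes was called (0%), and 6.06% had an unadjusted p under 0.05. Among the channel genes, *Trpc1* had the smallest unadjusted p, with a log2 interaction of 0.77 ± 0.33 (95% interval 0.05 to 1.48; padj = 0.722, limma), which became 0.32 when isoforms were weighted by length. *Trpc5* had 0.90 ± 0.51 (95% interval -0.19 to 2.0) and *Asic2* 0.59 ± 0.36 (95% interval -0.17 to 1.35). The intervals of *Trpc5* and *Asic2* include 0, that of *Trpc1* does not before adjustment, and all 3 reach differences of over 1 on the log2 scale, so neither a dependence on TIA nor its absence was resolved.

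The OGD cultures with and without TIA were then compared directly. None of the 16351 genes was called in OGD-TIA versus OGD-VEH (0%), and 7.91% had an unadjusted p under 0.05. The level of *Trpc5* was 1.82 ± 0.390 FPKM in OGD-TIA and 0.901 ± 0.714 FPKM in OGD-VEH, with a log2 fold change of 1.18 (95% interval 0.09 to 2.27; padj = 0.551, limma), and culture 9 lay within the OGD-TIA range. With array quality weights, which lower the influence of variable cultures, this value was 1.32 with padj = 0.0464 (limma). That fit called 408 of the 16351 genes. *Trpc6* was the only channel gene whose OGD-TIA cultures were all above the OGD-VEH cultures, and it rested on about 4 to 12 reads. It was under the filter, and of the genes above the filter 1.3% were all above and 2.51% all below. *Asic2* was at 12.6 ± 3.89 FPKM in OGD-TIA and 8.85 ± 2.98 FPKM in OGD-VEH, with culture 16 below 3 of the 4 OGD-VEH cultures. In the same cultures the neuron marker sum was 1287 FPKM in culture 16 and 1959 to 2070 FPKM in cultures 13 to 15, so the levels of *Asic2* and of these markers varied together, and the part of composition was not tested.

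TIA without OGD gave no call. In CONTROL-TIA versus CONTROL-VEH none of the 16170 genes passed (0%), and 3.84% had an unadjusted p under 0.05. *Trpm4* (log2 fold change 0.96, padj = 0.999, limma) and *Trpm7* (-0.24, padj = 0.999) were the channel genes with an unadjusted p under 0.05. Weighted by length their values were 0.07 and -0.07. For *Trpm4* and *Trpc5* all CONTROL-TIA cultures were above all CONTROL-VEH cultures, against 0.965% of the genes tested above and 1.09% below. For *Trpc5* the margin was narrow, with 3.011 FPKM in culture 5 against 3.005 FPKM in culture 2. Weighted by length, *Trpm4* overlapped, at 3.83 to 3.95 FPKM in CONTROL-TIA and 3.55 to 4.05 FPKM in CONTROL-VEH. *Trpc5* differed by 0.28 ± 0.14 (padj = 0.999, limma). *Trpc5* was called lower after OGD in vehicle cultures, and these 2 comparisons share the CONTROL-VEH cultures.

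Pooling both drug arms, with TIA as a covariate, gave 8 cultures on each side and used the same cultures as the comparisons above. *Trpm2* fell (log2 fold change -1.01 ± 0.21, padj = 0.00391, limma), as did *Trpc5* (-1.32 ± 0.27, padj = 0.00415) and *Trpv2* (-1.04 ± 0.27, padj = 0.0108). These were 3 of 9 genes tested, against 1.99% of all 16313 genes called lower and 2.8% called higher. *Asic2* (-0.68, padj = 0.0146) and *Trpc1* (-0.63, padj = 0.0210) were lower and *Trpm7* (0.43, padj = 0.0127) was higher with padj ≤ 0.05 but a smaller fold change, against 13.4% of all genes lower and 18.7% higher by padj alone. *Trpc6*, in the fit without a filter, had -0.96 ± 0.15 (padj = 0.00301). *Asic1* had -0.14 (95% interval -0.32 to 0.05), *Asic4* -0.45 and *Trpm4* 0.43, with padj of 0.116 to 0.248. With isoforms weighted by length, *Asic1* had -0.10 with padj = 0.0361 (limma), in a fit where 7293 of 16020 genes had padj ≤ 0.05. The calls depended on single cultures: *Trpm2* and *Trpv2* were not called without culture 2, 10, 12 or 16, *Trpm2* not without culture 1 or 5, and *Trpv2* not without culture 3. *Trpc5* was called in each of these fits. With a pseudocount of 1 none of the 3 met the fold criterion (-0.74, -0.84 and -0.83).

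Cell type markers moved with these differences. All 7 neuron markers had negative log2 fold changes in OGD-VEH versus CONTROL-VEH with a median of -0.96, and *Syt1*, a synaptic vesicle calcium sensor, was called (-1.52, padj = 0.0447, limma). All 6 astrocyte markers had positive values with a median of 0.67, and none was called. Culture 12 was lowest of OGD-VEH for 6 of the 10 channel genes and culture 16 lowest of OGD-TIA for 5. Each level was also divided by the neuron marker sum of its culture, a description chosen after the values were seen. *Trpc6* then stayed below the controls of the same drug arm in all OGD cultures (-1.01 with vehicle and -1.09 with TIA on the log2 scale). With vehicle the margin was narrow, with ratios of at most 0.0694 in OGD-VEH and at least 0.0707 in CONTROL-VEH per 1000 FPKM of markers. *Asic2* remained below in OGD-VEH (-0.29) but overlapped in OGD-TIA (-0.16). *Trpc5* overlapped in OGD-VEH (-1.25) and was below in OGD-TIA (-0.67), *Trpm2* (-0.74) and *Trpv2* (-0.59) were below in OGD-TIA and overlapped in OGD-VEH (-0.43 and -0.62), and *Trpc1* overlapped in both (-0.32 and -0.02). *Trpm7* had ratios above the controls in OGD-TIA (0.75) and overlapped in OGD-VEH (1.04), and *Trpm4* was above in OGD-VEH (1.47) and overlapped in OGD-TIA (0.33). *Asic1* and *Asic4* overlapped in both. Over all genes tested, this ratio lay without overlap above the controls for 39.5% with vehicle and 15.7% with TIA, and below them for 0.905% and 2.17%. The neuron marker sums were themselves lower in OGD-VEH than in CONTROL-VEH, so this ratio does not measure a level per neuron.

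**Figure D5:**
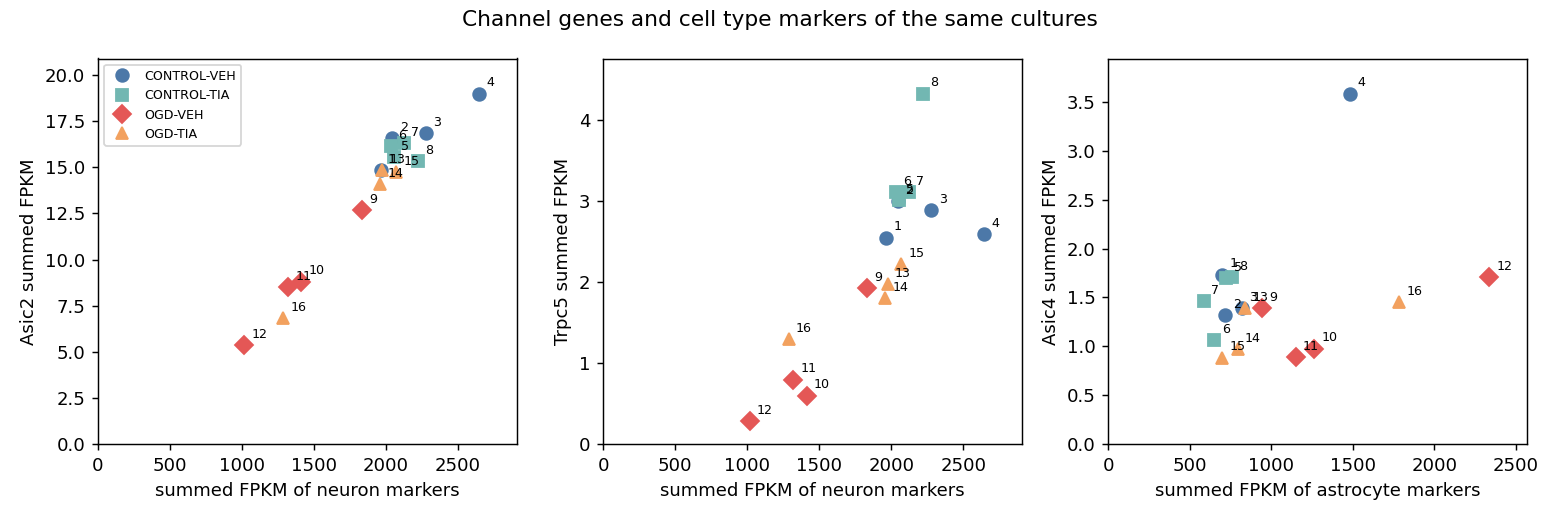
The summed FPKM of *Asic2* and *Trpc5* is plotted against the summed FPKM of 7 neuron markers, and that of *Asic4* against 6 astrocyte markers, with each point a culture labelled by its number. Cultures 10, 11, 12 and 16 are low on both axes in the first 2 panels, and culture 4 stands apart for *Asic4* at 3.58 FPKM.

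Of 23 other ASIC and TRP channel genes, 5 were above the filter in OGD-VEH versus CONTROL-VEH, with a median log2 fold change of -0.07. *Trpm3*, a steroid- and heat-sensitive channel, fell from 2.78 ± 0.322 FPKM to 1.14 ± 0.560 FPKM (log2 fold change -1.32 ± 0.32, padj = 0.0447, limma), the 1 gene of this list called. Over both drug arms *Trpc4*, a close relative of *Trpc5*, had -0.43 (padj = 0.0117) and *Pkd2*, the polycystin cation channel, 0.48 (padj = 0.0180), while *Trpm3* fell by 1.06 on the log2 scale (padj = 0.00258). *Asic3* averaged 0.139 FPKM and *Trpv1* 0.342 FPKM in CONTROL-VEH, both under the filter.

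Among 21 acid sensors and pH regulators, 15 were tested with a median of -0.24, 1 rose and 1 fell in OGD-VEH versus CONTROL-VEH. *Car2*, a cytosolic carbonic anhydrase, rose from 14 ± 0.881 FPKM to 60.9 ± 25.1 FPKM (log2 fold change 1.98 ± 0.35, padj = 0.0336, limma). *Slc4a3*, a chloride-bicarbonate exchanger, fell from 99.8 ± 22.3 FPKM to 46.3 ± 11.7 FPKM (-1.12 ± 0.23, padj = 0.0368, limma). *Tmem206*, the proton-activated chloride channel, had 0.56 (padj = 0.0436, limma), short of the fold criterion. *Car2* is also expressed by glial cells, and the oligodendrocyte lineage marker sum was 53.3 to 60.1 FPKM in CONTROL-VEH and 55.3 to 242 FPKM in OGD-VEH, whose part was not tested. Most of this sum was *Pdgfra*, a marker of the precursors, at 41.5 ± 5.82 FPKM in CONTROL-VEH, compared with 134 ± 73.7 in OGD-VEH, while *Mbp*, a myelin protein gene, was at 7.18 ± 2.02 and 3.81 ± 0.788 FPKM (log2 fold change -0.88, padj = 0.0493, limma). Of 11 channel partners, 10 were tested with a median of -0.42 and none was called. Over both drug arms *Homer1*, a scaffold that binds TRPC channels, had -0.46 (padj = 0.0231), and *Pick1*, a PDZ protein that binds ASICs, -0.33 (padj = 0.0312).

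The genes whose log2 levels were most alike over the 16 cultures, among 16312 compared, are given as a description, since all points share the OGD and composition differences above. *Asic2* was most like *Pcyt1b* (Pearson's r = 0.989), *Trpc5* most like *Nrg3* (0.985) and *Trpv2* most like *Clvs2* (0.967). *Trpm2* was most like *Nudt18* (0.963), *Trpm7* most like *Dennd6a* (0.927), *Asic4* most like *Fam107a* (0.920) and *Trpc1* most like *Tenm2* (0.916). For *Trpm4* (0.828 with *Aco1*) and *Asic1* (0.773 with *AC105358.1*) the closest genes were less alike.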

How the data were processed

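RNA of 16 cultures, 4 per group by the sample titles, was sequenced as stranded mRNA libraries with 50-base single-end reads. Per the study's methods, reads were mapped with STAR to GRCm38 with the Ensembl 92 annotation, isoforms were estimated with eXpress, and the authors ran their own tests with DESeq2. The authors deposited FPKM per isoform and culture, scaled between libraries by TMM according to the file name. DESeq2 needs read counts and was not applied here. Of 135276 lines, 74 carried no identifier (at most 0.0585% of the FPKM of a culture) and were left out. No culture's values were pooled.

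Isoform FPKM were summed per gene symbol, 0.1 was added and log2 taken. Genes averaging 0.5 FPKM or more in the cultures of a comparison were fitted with limma 3.58.1 in R 4.3.3 (empirical Bayes with trend), with Benjamini-Hochberg adjustment over all genes tested. A gene was called at a padj of at most 0.05 with at least a 2-fold difference, and fold changes of low genes are understated on this scale. The limma step was tested on simulated data, for pairs of groups with noise set from the spread of the control cultures. The spread of the OGD cultures was not simulated, so that test does not show how stable the calls are. Depth was estimated from the smallest recurring FPKM step of single-isoform genes, and since eXpress assigns reads by probability no counting intervals were computed. Isoform lengths and types came from GENCODE M21 and promoters from RefSeq. Other steps used Python 3.11.15, numpy 2.4.6, pandas 2.3.3 and matplotlib 3.10.9.

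The channel genes and all lists were chosen with earlier results of these data known. All 10 channel genes are named, isoforms with a mean of at least 0.5 FPKM may be named, and other genes are named where padj ≤ 0.05 in a comparison or where most alike in level. *Asic3*, *Trpv1*, *Cx3cr1* and the markers *Syt1*, *Pdgfra* and *Mbp* were singled out after their values were seen. Alternatives were a pseudocount of 1, no filter, a minimum of 2 FPKM, scaling by median ratios, quality weights for each culture, isoforms weighted by length, all 16 cultures in one fit and leaving out each culture in turn. The study describes 4 biological replicates per group. P-values measure the spread between these cultures.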

Additional observations from a re-analysis of the deposited data

Results flagged for a closer look

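Within each group of 4 cultures, the gap of the lowest or highest culture to its neighbour was divided by the range of the group. Of 40 groups tested (10 genes in 4 groups), 3 exceeded Dixon's 95% critical value for groups of 4, and chance alone gives about 1 in 20 groups. *Asic2* in OGD-TIA had a ratio of 0.905, because culture 16 was at 6.84 FPKM and the other 3 at 14.1 to 14.9 FPKM. That culture also had the lowest neuron marker sum of its group, 1287 FPKM. *Trpc5* in CONTROL-TIA had a ratio of 0.921, with culture 8 at 4.33 FPKM and the others at 3.01 to 3.12 FPKM. *Trpc6* in OGD-TIA had a ratio of 0.865, with culture 13 at 0.160 FPKM and the others at 0.123 to 0.128 FPKM, which is a difference of a few reads.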

How the results depend on the processing

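No paired analysis was run, because the titles number the cultures 1 to 16 once each and no label ties cultures of different groups together. Whether cultures at the same place in their groups share a preparation was not tested. The number of channel genes called in OGD-VEH versus CONTROL-VEH, 2 of 9 tested, was 1 with a pseudocount of 1 (*Trpc5*), 0 without a filter on low values, 1 with a minimum of 2 FPKM (*Trpc1*, with *Trpc5* not tested) 3 with median-ratio scaling (*Asic2* at -1.06 with padj = 0.0467, *Trpc1* and *Trpc5*), 3 with array quality weights and 3 with isoforms weighted by length (*Trpm2*, *Trpc5* and *Trpv2* in both, with *Trpc1* lost at -0.92 and -0.60), and 4 with all 16 cultures in one fit (*Trpm2*, *Trpc1*, *Trpc5* and *Trpv2*). Leaving out each culture gave 0 to 5 calls. The calls over all genes were 668 with the settings of the report, 36 without a filter (32532 genes tested), 1929 with array quality weights, 1021 with isoforms weighted by length, 1412 with all cultures in one fit and 1 to 2186 when each culture was left out. Over both drug arms, 3 calls became 0 with a pseudocount of 1, 1 with array quality weights, 1 with isoforms weighted by length and 1 to 3 when each culture was left out. Calls over all genes there were 780, 394 with a pseudocount of 1 and 526 to 1058 without each culture. For OGD-TIA versus OGD-VEH, array quality weights gave 1 call among the channel genes (*Trpc5*) and 408 over all genes, against 0. For OGD-TIA versus CONTROL-TIA, where no channel gene was called, array quality weights gave 80 calls over all genes and isoforms weighted by length 51. For the interaction, array quality weights gave 101 calls over all genes and none among the channel genes. Channel isoforms called in OGD-VEH versus CONTROL-VEH numbered 0 and, when each culture was left out, 0 to 2, and all isoforms called 75 and 66 to 1730. The causes were not tested.

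Some values changed sign. In CONTROL-TIA versus CONTROL-VEH these were *Asic1* weighted by length (-0.00574) and *Trpv2* with array quality weights (-0.0111). In OGD-TIA versus OGD-VEH it was *Asic4* with array quality weights (0.0622). In the interaction these were *Trpm4* (0.151) and *Trpm7* (-0.10) weighted by length, *Trpm7* with array quality weights (-0.142) and *Trpc6* with a pseudocount of 1 (-0.000841). Leaving out each culture, the sign of *Trpm4* varied in OGD-TIA versus CONTROL-TIA (-0.0439 to 0.363). In CONTROL-TIA versus CONTROL-VEH, *Asic1* ranged from -0.0725 to 0.118, *Trpm2* from -0.0222 to 0.273 and *Trpv2* from -0.0813 to 0.295. In OGD-TIA versus OGD-VEH, *Asic1* ranged from -0.0168 to 0.104, *Asic4* from -0.188 to 0.0998 and *Trpm7* from -0.218 to 0.0137. In the interaction, *Asic1* ranged from -0.0637 to 0.127, *Asic4* from -0.0469 to 0.417 and *Trpm2* from -0.0396 to 0.432. No other gene-level fold change of a channel gene changed sign under these alternatives, nor did those of the named isoforms Asic2-201, Asic2-202, Trpc1-202 and Trpc5-201. Depth limits *Trpc6* most, with about 4 to 35 reads per culture.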
